A study of Homo sapiens with 6 samples.

Results

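The genes examined here are the 10 that encode the core cyclins and their cyclin-dependent kinases (CDKs): the D-type cyclins CCND1, CCND2 and CCND3, the E-type cyclins CCNE1 and CCNE2, cyclin A2 (CCNA2), the B-type cyclins CCNB1 and CCNB2, and the kinases CDK1 and CDK2. They were taken by name and are 10 of the 20461 protein-coding genes measured. RNA-seq was performed on cells of the human pancreatic cancer cell line PANC1 grown for 48 h in vehicle (0.1% DMSO, 2 libraries) or in 50 nM gemcitabine (2 libraries). The libraries of a group are biological replicates. Gemcitabine resembles deoxycytidine, and cells that take it up stall in DNA replication. DNaseI-seq, which maps open chromatin, was done on 1 vehicle and 1 gemcitabine library, the latter at 50 nM. The labels give no treatment time for the DNaseI libraries. The study describes their conditions as those of its RNA-seq and siRNA screen. Because bulk RNA was measured, a change in the number of cells in a cell cycle phase cannot be told apart from a change of RNA per cell.

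Cyclins are the regulatory subunits that switch on CDKs, and most of them are made and destroyed once per division. D-type cyclins act in G1 with CDK4 and CDK6, E-type cyclins bind CDK2 at the start of DNA replication, cyclin A2 works with CDK2 in S phase and with CDK1 later, and B-type cyclins with CDK1 drive entry into mitosis. Transcription of the E-type cyclins is known to depend on E2F factors, and that of CCNA2, CCNB1, CCNB2 and CDK1 on promoter elements bound by NF-Y (the CCAAT box) and by the MuvB complex (the CHR element).

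The promoters of the genes that act in S phase and mitosis are shown first, because these were the ones whose start sites lay under a DNaseI peak in at least 1 condition and for which a RefSeq promoter was given. Each is the 250 bases before a RefSeq start site (GRCh38.p14), written 5′ to 3′ along the gene, and each matched the GRCh37 genome exactly once, at the place named. Capitals mark the letters searched for on both strands. For the CHR element the search took TTTGAA, and as a second form TTCGAA. The CCAAT box was searched as CCAAT, which reads ATTGG where it lies on the other strand. For E2F the search took TTCGCGC, then in the same way TTGGCGC, and as the last form TTCCCGC. No match overlapped another in these 4 stretches.
CDK1, chr10:62537839-62538088, plus strand: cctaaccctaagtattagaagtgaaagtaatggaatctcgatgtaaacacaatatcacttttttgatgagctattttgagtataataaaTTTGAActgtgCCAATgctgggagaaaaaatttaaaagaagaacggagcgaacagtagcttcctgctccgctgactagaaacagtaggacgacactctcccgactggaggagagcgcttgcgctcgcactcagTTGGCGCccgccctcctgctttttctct
CCNB1, chr5:68462727-68462976, plus strand: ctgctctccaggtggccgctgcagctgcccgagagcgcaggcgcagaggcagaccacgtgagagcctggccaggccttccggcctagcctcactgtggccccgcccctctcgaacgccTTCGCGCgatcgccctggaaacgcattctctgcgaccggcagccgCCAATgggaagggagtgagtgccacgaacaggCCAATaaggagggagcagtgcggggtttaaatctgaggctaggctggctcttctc
CCNB2, chr15:59397095-59397344, plus strand: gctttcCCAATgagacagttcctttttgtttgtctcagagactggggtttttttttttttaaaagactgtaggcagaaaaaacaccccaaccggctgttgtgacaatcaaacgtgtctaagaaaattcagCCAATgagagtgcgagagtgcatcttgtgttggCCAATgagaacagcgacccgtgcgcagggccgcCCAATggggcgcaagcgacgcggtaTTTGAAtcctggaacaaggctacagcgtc
CCNA2, chr4:122745039-122745288, minus strand: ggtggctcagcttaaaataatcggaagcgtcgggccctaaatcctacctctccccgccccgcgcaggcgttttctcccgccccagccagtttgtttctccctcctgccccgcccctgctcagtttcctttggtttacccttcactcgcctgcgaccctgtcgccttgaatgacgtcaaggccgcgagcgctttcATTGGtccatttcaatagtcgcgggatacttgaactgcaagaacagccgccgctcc

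Windows of 300 bases, from 250 before to 50 after the start, were given for 6 of the 10 genes. The CCNB2 window held 4 CCAAT boxes and 1 CHR match, the latter 29 bases before the start. The CCNB1 window held 2 CCAAT boxes and 1 E2F match, and the CCNA2 window held 1 CCAAT box and no match to the other letters. CDK1 has 2 RefSeq starts. The first window held 1 CHR, 1 CCAAT and 2 E2F matches, and the second, which overlaps it, held 3 CHR, 2 CCAAT and 2 E2F matches. The E2F matches of the second window are the same letters as those of the first. Only the bases before the first start are printed above. The CCNE1 window held none of these letters, and the 3 windows of CCND3 held only CCAAT boxes, 1 in each of 2 windows. Across 35116 such windows of the genome, 16.4% held a CHR match, 34.6% a CCAAT box and 11.0% an E2F match. These are letter matches and not sites of binding. Only the letters named above were searched for, so a window without a match may still hold another form of an element.

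The libraries held 13194533 to 15766237 fragments assigned to genes, and the gemcitabine libraries were the smaller. Replicates differed by more than counting noise in both groups. The chi-square between replicates averaged 2.21 per gene for vehicle and 5.4 for gemcitabine, where counting noise alone would give 1. The epithelial keratins KRT8, KRT18 and KRT7 and the mesenchymal marker VIM had 5963 to 17660 fragments in every library, whereas the ductal keratin KRT19 had only 45 to 94. Among the markers of blood, endothelial and fibroblast cells, CD3E had 0 fragments, PTPRC 2 to 9, VWF 8 to 34, DCN 24 to 39 and CD68 133 to 269, but the collagen gene COL1A1 had 56723 to 62658. CD68 and VWF were higher in both gemcitabine libraries (log2 fold changes of 0.94 and 2.01), and their part in the results below was not tested. CDKN2A, which encodes the CDK4 and CDK6 inhibitor p16 and is described as homozygously deleted in PANC1, had 5106 to 6219 fragments in all 4 libraries. This last value goes against the label of the cell line in vehicle and gemcitabine libraries alike, and was noticed after the values were seen.

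Of the 10 genes, 9 were expressed and 1, CCND2, was not detected. After 48 h of gemcitabine CDK1, CDK2 and CCND3 RNA was higher, CCND1, CCNE1 and CCNE2 RNA was lower, and CCNA2, CCNB1 and CCNB2 did not pass the test. Thus 6 of the 9 genes tested passed an adjusted p of 0.05, 3 in each direction (quasi-likelihood test of edgeR, with p-values adjusted over all 14854 genes tested by the Benjamini-Hochberg method). This is to be read against a background of 38.5% of all genes tested (18.5% higher and 20.0% lower), and of 47.0% among the 6705 genes with a mean level at or above that of the lowest of the 9. The count rests on few libraries and on the fragment scale. With either vehicle library left out fewer of the 9 passed, and fewer of all genes tested did too. In tests on FPKM 2, 1 or 0 of the 9 passed. The test with 2 put 1309 genes higher and 559 lower of 14105, and that with 1 put 988 and 373 of 14105. The tests with 0 put 0 to 328 genes higher and 0 to 144 lower over the whole table. Under a stricter rule (adjusted p under 0.05, fold over 1.5, mean FPKM of at least 0.1 in 1 condition and a difference of at least 1 FPKM) only CDK1 of the 9 was called, where 10.1% of all genes were (5.69% higher and 4.42% lower).

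Levels are given as FPKM, fragments scaled to transcript length and to the mapped fragments of the library, which allows genes of different length to be compared within a condition. The share of all genes whose FPKM did not overlap between vehicle and gemcitabine was not counted. A lack of overlap in FPKM is therefore description only. In vehicle the order of mean FPKM was CCND3, CCNB1, CDK2, CDK1, CCNB2, CCND1, CCNA2, CCNE1, CCNE2 and CCND2. Neighbours in this order overlapped for CCND3 with CCNB1 and for CCNE1 with CCNE2 and for no other pair. In gemcitabine CDK2 stood between CCND3 and CCNB1, overlapping neither, and CCNA2 stood just above CCND1 with overlapping values, as CCNE1 did above CCNE2. Averaged over the 4 libraries, CCND3, CDK2, CCNB1 and CDK1 were above 96.0% or more of the genes with any signal, and CCNE1 and CCNE2 above only 62.6% and 62.3%.

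**Figure D1:**
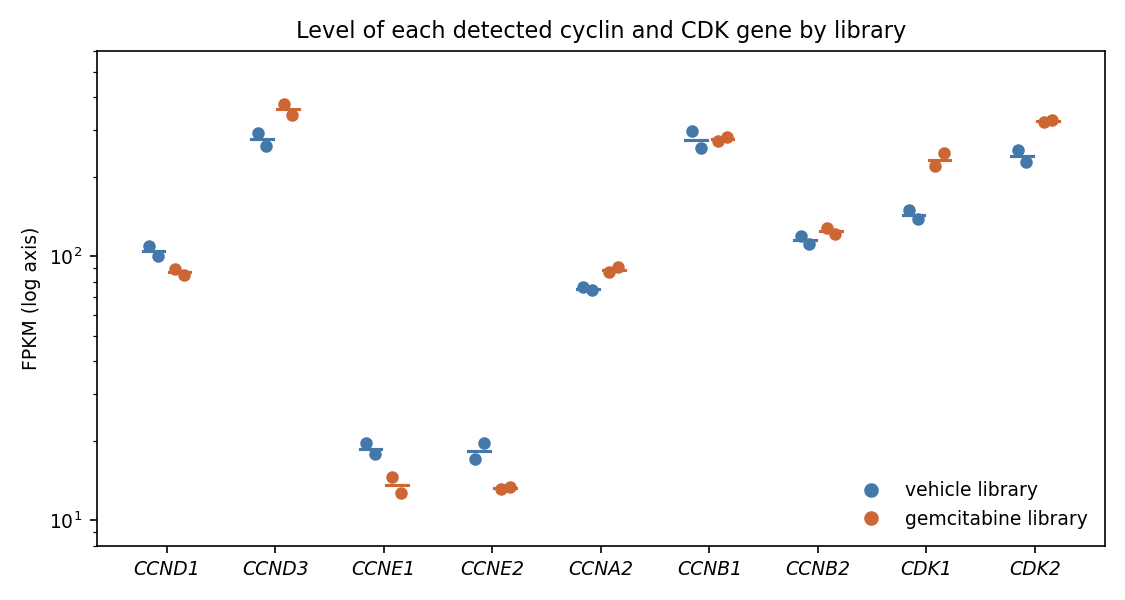
FPKM (log axis) of the 9 detected genes in each of the 2 vehicle and 2 gemcitabine libraries, with a short line at each group mean. CDK1, CDK2 and CCND3 lie higher in both gemcitabine libraries, as do CCNA2 and CCNB2 by less, CCND1, CCNE1 and CCNE2 lie lower, and the CCNB1 groups overlap; CCND2, at 0 in all libraries, is not drawn.

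CCND1, the cyclin D induced by growth factor signalling, lies at chr11:69455924-69469242 (GRCh37). It had 109.5 and 99.7 FPKM in the vehicle libraries and 89.6 and 85.0 in the gemcitabine libraries. Both gemcitabine values were below both vehicle values. The means were 104.6 ± 6.89 and 87.3 ± 3.29 FPKM (SD, n = 2 each), and in scaled fragments CCND1 fell by 0.36 on the log2 scale (SE 0.0651, adjusted p = 0.000572, edgeR).

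CCND3 (chr6:41902672-42018095), the most abundant of the 10 genes, moved the other way. It had 293 and 262 FPKM in vehicle and 379 and 344 in gemcitabine, with no overlap between the groups. The means were 278 ± 21.5 and 361 ± 24.5 FPKM (SD, n = 2 each). The log2 fold change in scaled fragments was 0.34 (SE 0.0645, adjusted p = 0.00077, edgeR), and without vehicle replicate 2 it missed the threshold (adjusted p = 0.0523).

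CCND2 (chr12:4378937-4414519), the third D-type cyclin, had 0 fragments in all 4 libraries. A count of 0 allows a level of up to 0.190 to 0.227 CPM (counts scaled to library size), the value of 3 fragments in these libraries, by counting error only. Cuffdiff marked no failed estimate for it. In the annotation used here a coding gene named only by an identifier overlaps CCND2 on the same strand over 31592 bases, and that gene was not analysed here.

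The opposite moves changed the make-up of D-type cyclin RNA within each library, a measure that needs no scaling between libraries. CCND3 made up 72.8% and 72.5% of D-type FPKM in vehicle and 80.9% and 80.2% in gemcitabine. The groups did not overlap, and the difference of the means was 7.90 percentage points. An exact two-sided permutation test gave p = 0.333, the smallest that 2 against 2 libraries allow, so no share could reach 0.05.

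CCNE1 (chr19:30302898-30315219) and CCNE2 (chr8:95891998-95908906) encode the 2 E-type cyclins, the partners of CDK2 at the G1/S transition, and were the lowest of the 9 expressed genes. CCNE1 had 19.5 and 17.7 FPKM in vehicle and 14.6 and 12.6 in gemcitabine. CCNE2 had 17.0 and 19.6 FPKM in vehicle and 13.1 and 13.4 in gemcitabine. For both genes the gemcitabine libraries were the lower, with no overlap.

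In scaled fragments CCNE1 fell by 0.42 on the log2 scale (SE 0.0976, adjusted p = 0.0036, edgeR) and CCNE2 fell by 0.50 (SE 0.0975, adjusted p = 0.00107, edgeR). They rested on 264 to 569 fragments per library, the fewest of the 9 genes, and their standard errors were the widest. Without vehicle replicate 2 neither passed (adjusted p = 0.0586 for CCNE1 and 0.0665 for CCNE2, edgeR), nor did CCNE1 without vehicle replicate 1 (adjusted p = 0.0791, edgeR). CCNE1 made up 53.5% and 47.5% of E-type FPKM in vehicle and 52.7% and 48.6% in gemcitabine, and these shares overlapped (exact permutation test, two-sided, p = 1).

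CCNA2 (chr4:122737599-122745038), the S phase and G2 cyclin, had 76.1 and 74.5 FPKM in vehicle and 87.1 and 90.7 in gemcitabine. The FPKM groups did not overlap. In scaled fragments its log2 fold change was 0.13 (95% interval -0.0053 to 0.27) and did not pass the test (adjusted p = 0.119, edgeR). It passed when libraries were scaled by their totals (log2 fold change 0.24, adjusted p = 0.00542, edgeR). With 1 library left out, the log2 fold change ran from 0.10 to 0.17.

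CCNB1 (chr5:68462962-68474072), the main mitotic cyclin, had 297 and 256 FPKM in vehicle and 272 and 283 in gemcitabine, so that the gemcitabine values lay inside the vehicle range. Its log2 fold change in scaled fragments was -0.17 (95% interval -0.31 to -0.029, adjusted p = 0.0537, edgeR), against 0.0098 on log2(FPKM + 1). The sign thus differed between fragments and FPKM. Scaling moved the value too, since fragments scaled by library totals gave -0.058 (adjusted p = 0.455, edgeR). With 1 library left out, the log2 fold change in scaled fragments ran from -0.19 to -0.13.

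CCNB2 (chr15:59397325-59417244), the second B-type cyclin, had 118.9 and 111.4 FPKM in vehicle and 127.7 and 121.5 in gemcitabine. Its log2 fold change in scaled fragments was -0.026 (95% interval -0.16 to 0.11, adjusted p = 0.788, edgeR). The sign turned when libraries were scaled by their totals, in FPKM, and without vehicle replicate 1. CCNB1 made up 71.4% and 69.7% of B-type FPKM in vehicle and 68.1% and 69.9% in gemcitabine, with overlap (exact permutation test, two-sided, p = 0.667). In raw fragments the shares were 61.1% and 61.1% against 58.4% and 59.0%, without overlap (difference -2.37 percentage points, exact permutation test, two-sided, p = 0.333).

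CDK1 (chr10:62538089-62554610), the kinase that drives mitosis, showed the widest change of the 9 genes. It had 149 and 138 FPKM in vehicle and 219 and 246 in gemcitabine. Both gemcitabine libraries lay well above both vehicle libraries, also in fragments, where 2382 and 2523 in vehicle stood against 3525 and 3689 in the smaller gemcitabine libraries. The means were 144 ± 8.13 and 232 ± 19.3 FPKM (SD, n = 2 each). The log2 fold change was 0.67 (SE 0.0667, 95% interval 0.53 to 0.81, adjusted p = 3.31e-06, edgeR), a 1.59-fold rise just above the 1.5-fold limit, which lies inside the interval.

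CDK2 (chr12:56360565-56366573), the kinase of S phase, had 252 and 228 FPKM in vehicle and 323 and 327 in gemcitabine. The groups did not overlap, and the log2 fold change in scaled fragments was 0.31 (SE 0.0647, adjusted p = 0.0016, edgeR). It missed the threshold without vehicle replicate 1 (adjusted p = 0.0519, edgeR) and without vehicle replicate 2 (adjusted p = 0.0626). In the annotation used here PMEL overlaps CDK2 on the other strand over all 6009 bases of CDK2. The overlap was taken between whole genes, introns included, and shared exons were not looked for. Counting is not stated to use strand, so reads from any shared exon could not be told apart. The part of PMEL in the CDK2 values was not tested. CCND1 and CCNA2 each overlap 1 coding gene on the other strand and CCNE2 overlaps 2, over 578 to 1977 bases.

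Within each library CDK1 made up 37.2% and 37.6% of the FPKM of the 2 kinases in vehicle and 40.4% and 42.9% in gemcitabine. The groups did not overlap, with a difference of 4.23 percentage points (exact permutation test, two-sided, p = 0.333). In raw fragments the difference was 6.17 points.

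**Figure D2:**
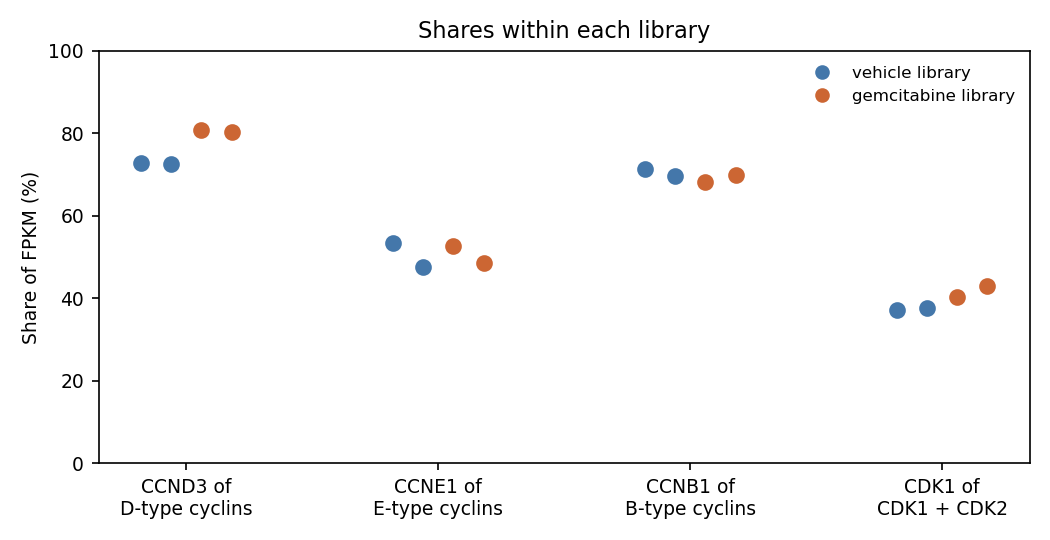
Share (%) of FPKM within each library of CCND3 among the D-type cyclins, CCNE1 among the E-type cyclins, CCNB1 among the B-type cyclins and CDK1 among the 2 kinases; each point is 1 library. The CCND3 share was 72.5% to 72.8% in vehicle and 80.2% to 80.9% in gemcitabine, and the E-type and B-type shares overlapped in FPKM (the B-type shares of raw fragments did not).

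**Figure D3:**
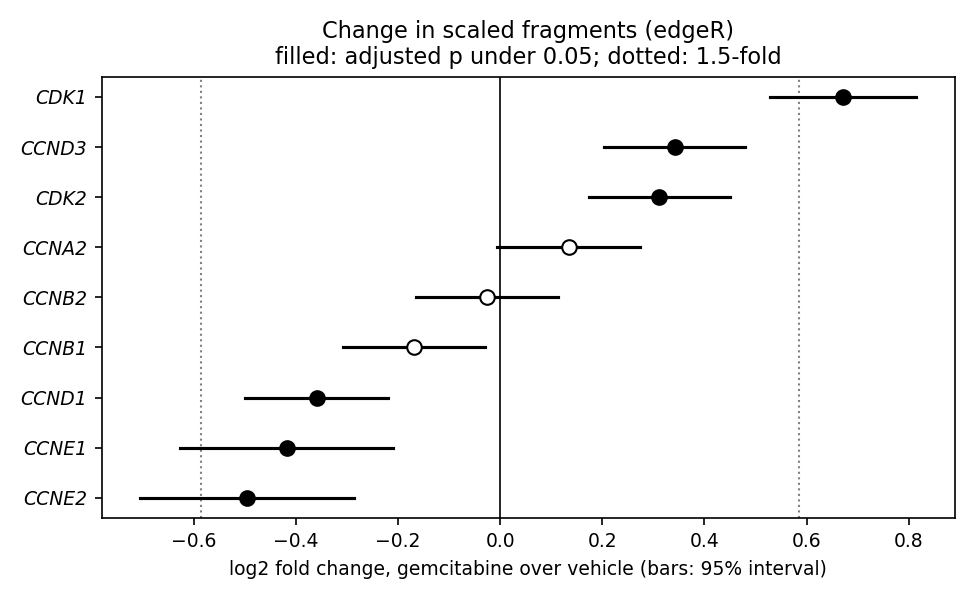
Log2 fold change of scaled fragments, gemcitabine over vehicle, for the 9 genes tested; bars are 95% intervals, filled points passed an adjusted p of 0.05 and dotted lines mark 1.5-fold. CDK1 at 0.67 is the only point past a dotted line, and CCNE2 at -0.50 is the lowest.

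Scaled fragments of the 2 groups did not overlap for 8 of the 9 genes, CCNB2 being the exception, where 69.7% of all genes tested did not overlap. The scaling mattered for the middle of the list. With library totals in place of TMM factors the median log2 fold change of all genes moved from 0.0069 to 0.12, and the called genes from 845 higher and 656 lower to 1164 and 418. With library totals CDK1 stood at 0.78 and CCNE2 at -0.39. FPKM carry no TMM factors either, so small rises in FPKM are to be read against the shift of the median. On log2(FPKM + 1) CCNB2 rose by 0.11 and CCNA2 by 0.24.

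**Figure D4:**
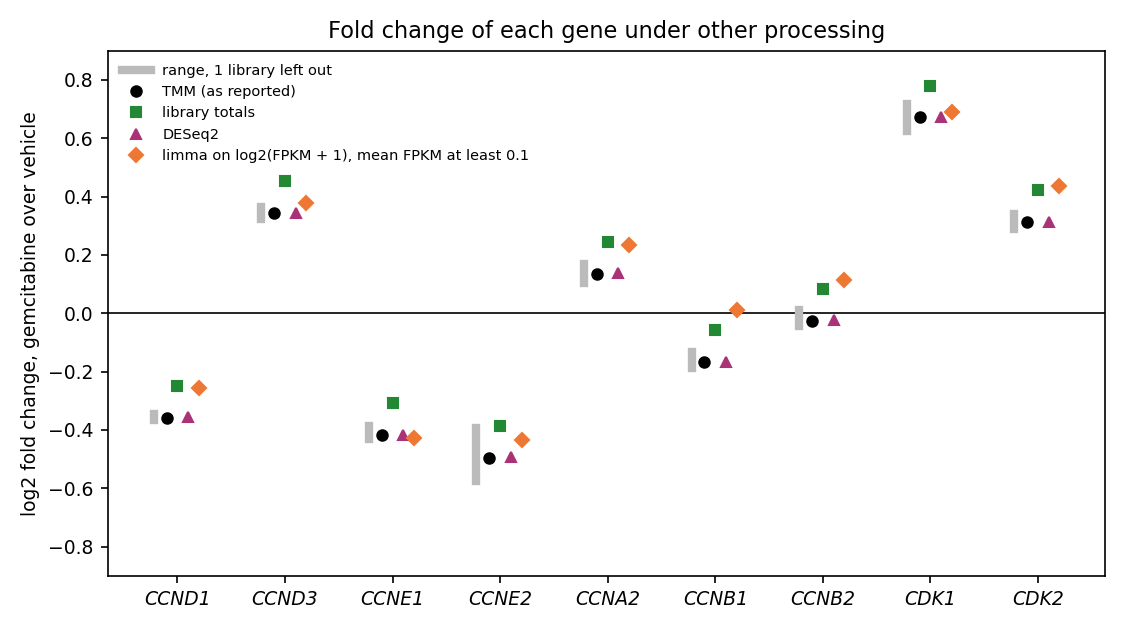
Log2 fold change, gemcitabine over vehicle, of the 9 genes with TMM scaling (black), library totals (green), DESeq2 (purple) and limma on log2(FPKM + 1) with a mean of at least 0.1 FPKM (orange); grey bars span the values with 1 library left out. CCNB1 and CCNB2 change sign between them, and CDK1 stays between 0.63 and 0.78.

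FPKM and fragments can part where the mix of isoforms, and so the assumed transcript length, changes. The log2 ratio of FPKM to fragments, centred on the library median, moved by -0.16 for CCNE1, -0.10 for CDK1, -0.098 for CCNE2 and -0.089 for CCND3, with no overlap between groups for these 4 or for CCNA2, which moved by -0.022. With 1 library left out the shifts ran from -0.25 to -0.077 for CCNE1 (gemcitabine replicates 1 and 2 left out), from -0.15 to -0.059 for CDK1 (gemcitabine replicates 2 and 1), from -0.14 to -0.057 for CCNE2 (vehicle replicates 1 and 2) and from -0.13 to -0.043 for CCND3 (vehicle replicates 2 and 1). The median absolute shift over all genes compared was 0.0757 and the 90th percentile 0.344, so none of the 4 reached that percentile. Only 21.1% of genes had a smaller shift than CCNA2. The share of all genes without overlap in this ratio was not counted, so the lack of overlap is not read as a change of isoforms.

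At the chromatin level, CCNB1, CCNB2 and CDK1 had a DNaseI peak over a start site in both conditions. The MACS score, which rises with the significance of a peak and is at least 50 in these lists, was 116.7 and 78.7 for CCNB1, 79.9 and 79.5 for CCNB2, and 57.0 and 67.8 for CDK1, in vehicle and gemcitabine. In both conditions these peaks covered all 250 bases of the CDK1, CCNB1 and CCNB2 promoters printed above, and the CCNA2 promoter was covered in gemcitabine only. CCNE2, CCNA2 and CDK2 had a start site peak only in the gemcitabine list, with scores of 60.9, 50.7 and 61.9, close to the minimum. For CCND1, CCND2, CCND3 and CCNE1 the lists used here held no peak within 1000 bases of a start site, the nearest for CCND3 being 2596 and 2356 bases away. Thus 3 of 10 genes had a vehicle peak and 6 of 10 a gemcitabine peak, against 27.8% and 32.2% of 14154 genes, in lists of 9606 and 10695 peaks. With 1 library per condition there is no replicate check, and at a score of at least 100 the counts were 1 and 0 of 10, against 8.0% and 9.91% of all genes.

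The proteins that switch the CDKs on and off were then examined, in lists that hold none of the 10 genes. Each count below is to be read against the 18.5% of all genes that were higher and the 20.0% that were lower. Of 7 CDK inhibitors, 4 rose and 0 fell, with a median log2 fold change of 0.49 against 0.0069 over all genes. CDKN1A, which encodes p21, an inhibitor of CDK2 complexes, had 63.6 and 67.9 FPKM in vehicle and 177 and 170 in gemcitabine (log2 fold change 1.29, adjusted p = 1.67e-08, edgeR). CDKN2B rose by 1.11 (adjusted p = 4.08e-07), CDKN2D by 0.97 (adjusted p = 0.0163) and CDKN1C by 0.49 (adjusted p = 0.000149) on the log2 scale, while CDKN1B, CDKN2A and CDKN2C did not pass.

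Of the 5 phosphatases and kinases that set the inhibitory phosphate on CDKs, 1 rose and 2 fell. CDC25C, which activates CDK1, had 11.3 and 10.9 FPKM in vehicle and 16.1 and 17.5 in gemcitabine (log2 fold change 0.62, adjusted p = 0.000225, edgeR). WEE1, which inhibits CDK1 and CDK2, fell by 0.47 on the log2 scale (adjusted p = 0.000168) and CDC25A fell by 0.30 (adjusted p = 0.00496). Among the CDK-activating kinase and CKS adaptors, CDK7 rose by 0.34 (adjusted p = 0.00362), CKS2 fell by 0.37 (adjusted p = 0.000731) and the other 3 did not pass. CDK4, CDK6 and CCNF fell, by 0.27, 0.29 and 0.23 (adjusted p = 0.00433, 0.00427 and 0.0473), and the other 2 of the 5 tested in that list did not pass.

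Of 13 E2F factors and pocket proteins, 6 fell and 0 rose. E2F1, an activator E2F of G1/S genes, had 38.5 and 32.9 FPKM in vehicle and 18.5 and 21.1 in gemcitabine (log2 fold change -0.93, adjusted p = 1.05e-06, edgeR), and E2F5 fell by 0.95 (adjusted p = 6.58e-05). Of 10 subunits of MuvB and NF-Y with B-MYB and FOXM1, 3 rose and 3 fell. LIN54, the subunit that binds CHR elements, rose by 0.41 (adjusted p = 0.000836) and NFYA fell by 0.52 (adjusted p = 0.000478).

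Of the 7 mitotic entry partners of cyclin B and CDK1, 1 rose and 3 fell: MASTL, the Greatwall kinase, rose by 0.52 (adjusted p = 8.19e-05), and PLK1 fell by 0.65 (adjusted p = 5.6e-06, edgeR). Of 19 APC/C genes, which mark B-type and A-type cyclins for destruction, 2 rose and 4 fell, at or near the shares of all genes. UBE2S, an E2 enzyme, fell by 0.46 (adjusted p = 0.000214) and the subunit ANAPC1 fell by 0.49 (adjusted p = 0.000239). Of the activators, FZR1 rose by 0.32 (adjusted p = 0.00434) and CDC20 fell by 0.35 (adjusted p = 0.00114). Of 8 ubiquitin ligase genes for the D-type and E-type cyclins, 4 fell and 0 rose, among them CUL1, which fell by 0.30 (adjusted p = 0.00247), and SKP2, which fell by 0.29 (adjusted p = 0.00378). Of 14 transcriptional cyclins and CDKs, which do not drive the cell cycle, 3 rose and 3 fell, shares near those of all genes.

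Phase markers were described in the same way. Of 39 S phase markers, 6 rose and 18 fell (median -0.15). The log2 fold changes were -1.55, -1.14 and -1.26 for UNG, MCM5 and CDCA7 (adjusted p = 1.67e-08, 5.1e-08 and 9.45e-08, edgeR). Among the 6 that rose, BRIP1 had 0.58 (adjusted p = 3.54e-05, edgeR). Of 49 G2/M markers, 8 rose and 16 fell (median -0.057). The log2 fold changes were -0.81 for LBR (adjusted p = 1.04e-06, edgeR) and -0.72 for MKI67 (adjusted p = 2.12e-06). Among the 8 that rose, CDC25C had 0.62 and HJURP 0.41. Some genes, CDC25C among them, stand in more than 1 list, so the counts of the lists are not independent. Whether the phase markers had a part in the changes of the cyclins and CDKs was not tested. With library totals the medians were -0.039 and 0.052, the latter with the sign turned.

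**Figure D5:**
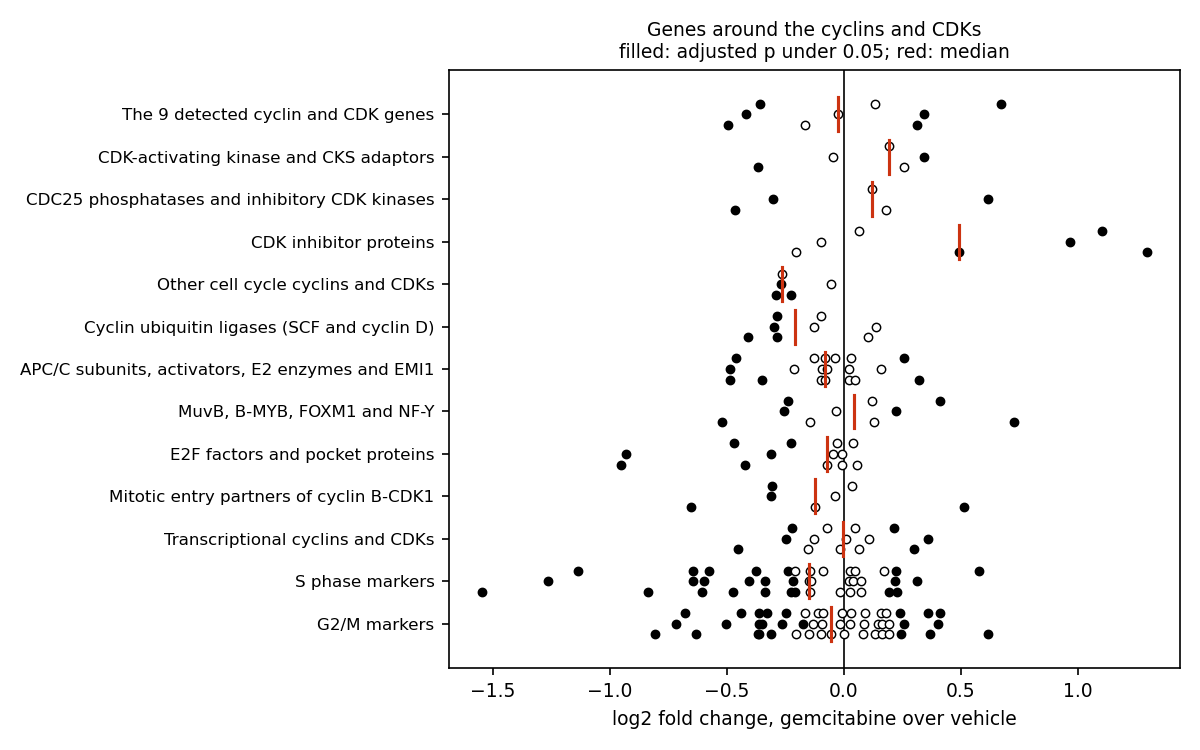
Log2 fold change, gemcitabine over vehicle, of the 9 detected cyclin and CDK genes (top) and of the genes in 12 lists around them; each point is 1 gene, filled where the adjusted p was under 0.05, and red lines are medians. CDK inhibitors have the highest median, 0.49, and E2F factors and pocket proteins have filled points below 0 only.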

How the data were processed

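RNA-seq was analysed in 2 vehicle and 2 gemcitabine libraries of cells labelled PANC1, and DNaseI-seq in 1 library of each. The authors used TopHat2 2.0.8 to place single-end reads on hg19 and quantified Gencode V15 protein-coding genes with Cuffdiff 2.0.2. The deposited table holds estimated counts (fragments per gene and library, not all of them whole) and FPKM, which the authors took from Cuffdiff. The deposited peak lists give a MACS score for each peak, called by the authors per condition with a minimum of 50.

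Estimated counts were rounded. Library totals were 15153593 and 15766237 (vehicle) and 13194533 and 13275457 (gemcitabine), and intervals and floors cover counting error only. The 14854 genes whose fragments summed to 10 or more entered edgeR 4.0.16 (quasi-likelihood test, TMM scaling), two-sided, with Benjamini-Hochberg adjustment over all of them and no covariate. The stricter rule used in the report is the one the study's methods state for differential expression. Every adjusted p in the report comes from this fit unless another is named. Standard errors are the fold change divided by the root of its F value. The scripts were tested on simulated data. Alternatives were RLE size factors, library totals, DESeq2 1.42.0, no filter, filterByExpr, limma 3.58.1 on log2(FPKM + 1) and log2(FPKM + 0.1), each library left out, a stricter threshold, raw-fragment shares, and other peak distances and scores.

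For limma, 6 forms were run, and their counts of called genes over the whole table differed widely. The form that lets the prior variance follow a trend was kept for the listed alternatives after those counts had been seen, because with a filter its counts matched an earlier analysis of these data. The 3 forms without the trend were added after the data were seen, and the results of all 6 are given with the alternatives.

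The 10 genes and the lists were chosen with earlier results of these data known. The named genes are the 10 and, from each list, up to 3 with the smallest adjusted p (up to 6 for direct regulators), besides genes a result turns on. CCNE2, CDK1 and CCNB2 were taken out of the phase marker lists after values were seen. Of 20461 identifiers, 19619 matched a current name. Coordinates and start sites are from Gencode carried over to GRCh37, later than the authors' annotation. The columns scaled by Cuffdiff were not used, and proteins were not analysed here. A cell type marker of the lists is not reported here.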

Additional observations from a re-analysis of the deposited data

How the results depend on the processing

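The limits are these. With 2 libraries a group, leaving out 1 leaves 1 residual degree of freedom, and the lone library is assumed to vary like the other group. Fits without a gemcitabine library take their spread from the vehicle libraries, which differed less, so a pass there adds no support. CCNE1 and CCNE2 rest on under 570 fragments a library. No paired analysis was possible because nothing links the table's library indices with the replicate numbers in the labels, so the replicate block was not run.

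Members past an adjusted p of 0.05 numbered 3 higher and 3 lower with RLE size factors, DESeq2, no filter and filterByExpr. An adjusted p under 0.01 gave the same counts, and library totals gave 4 and 3. Over all genes, RLE size factors put 2784 higher and 2963 lower of 14854, and DESeq2 put 1724 and 2171 of 14854. No filter put 2340 and 2520 of 17762, and filterByExpr 2828 and 2937 of 13327. Library totals put 4073 and 1977 of 14854. The share of all genes under 0.01 was not counted. With 1 library left out, passes were fewest without vehicle replicate 2, among the 9 and over all genes alike. The log2 fold changes then ran from 0.63 to 0.72 for CDK1, 0.32 to 0.37 for CCND3 and 0.29 to 0.34 for CDK2. They ran from -0.37 to -0.35 for CCND1, -0.43 to -0.39 for CCNE1 and -0.58 to -0.39 for CCNE2. CDK1, CDK2, CCND3, CCND1, CCNE1 and CCNE2 each passed with RLE size factors, library totals, DESeq2, no filter and filterByExpr. Those fits share the same fragment counts, so they are not separate evidence. On FPKM only CDK1 and CDK2 passed in any limma form.

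The tests on FPKM gave fewer calls, and which of the limma forms was used decided how many. Among the 3 with a trend, log2(FPKM + 1) and log2(FPKM + 0.1) without a filter called 0 genes higher and 0 lower over the whole table (4689 and 4716 genes at an unadjusted p under 0.05), and so 0 of the 9 in either direction (4 higher and 3 lower unadjusted) and 0 by the stricter rule. These zeros therefore say nothing particular to the cyclins and CDKs. With a mean of at least 0.1 FPKM the trend form put 1309 genes higher and 559 lower at an adjusted p under 0.05 (limma). Of the 9, 2 (CDK1 and CDK2) were higher and 0 lower. By the stricter rule this form called 894 genes higher and 326 lower, and 1 (CDK1) and 0 of the 9. The 3 other forms were chosen after seeing the data. Without trend or filter, 328 genes were higher and 144 lower at an adjusted p under 0.05 (limma), with 0 and 0 of the 9. With the filter 988 and 373 genes passed, with 1 (CDK1) and 0 of the 9. On all rows 196 and 91 genes passed, with 0 and 0 of the 9. By the stricter rule these forms called 221 and 75, 812 and 298, and 95 and 32 genes, in that order. Of the 9 that rule called CDK1 with the filter and 0 in the other 2 forms. For CDK1 the adjusted p over the 6 forms (limma) ran from 0.0187 to 0.108, with log2 fold changes of 0.69. In edgeR library totals gave 418 called lower, against 656.

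CCNB1 turned to 0.0098 on the log2 scale in all 6 limma forms. CCNB2 turned to 0.085 with library totals, 0.11 in all 6 limma forms and, over the libraries left out, ran from -0.046 to 0.0096, the last without vehicle replicate 1. The CDK1 share of the 2 kinases moved to 6.17 percentage points in raw fragments. With a score of at least 100, genes with a peak numbered 1 in vehicle and 0 in gemcitabine of 10, against 8.0% and 9.91% of all genes. The cause of these differences was not tested.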
